A study of Mus musculus with 12 samples.

Results

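A set of 10 genes of the MHC class I pathway was followed through 4 dendritic cell populations of mouse bone marrow: the heavy chains H2-K1 and H2-D1, their light chain B2m, the peptide transporter Tap1 and Tap2, tapasin (Tapbp), the inducible proteasome subunits Psmb8, Psmb9 and Psmb10, and the class I transactivator Nlrc5. They were taken as a list of 10 named genes out of 21754 in the count table, and all 10 passed the filter of a mean of at least 1 count per library that left 15293 genes to test. H2-K1, H2-D1, B2m, Tapbp, Psmb10 and Nlrc5 differed among the 4 populations and were higher in pDCs than in pre-cDCs, whereas Tap1, Tap2, Psmb8 and Psmb9 did not pass that test.

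The libraries came from CD11c+ cells sorted from bone marrow of untreated wild-type C57BL/6 mice, described in the methods as adults of both sexes, and no age is given for single libraries. The 4 populations were Siglec-H- pre-cDCs, Siglec-H+ CCR9lo B220lo precursors (lo-lo), Siglec-H+ CCR9lo B220hi precursors (lo-hi) and CCR9hi B220hi pDCs, with 3 libraries each. All came from normal marrow, so every difference below is between cell populations and not between treatments or genotypes. Whether a library held 1 mouse or several is stated in more than 1 way by the study, so p-values measure the spread between these libraries.

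The populations below do not follow the deposited labels. For 28 transcription factors, the order of the counts within each of the 12 wells was matched to the named samples in the source data of the study, which hold 378 pairs of genes each. For every named sample 1 well had 0 pairs in another order, and the next best well had at least 7. This match placed 8 of the 12 wells in another population than their deposited label did, and 4 kept their label. No class I or immunoproteasome gene was among the 28 factors. Under the deposited labels 0 of 15293 genes passed the test among the 4 populations (edgeR's quasi-likelihood test, smallest adjusted p = 0.521, with 166 genes at an unadjusted p under 0.05, none of them among the 10), so all results rest on the match. Summed markers followed it: 8 pDC markers ran from 1559 to 2453 CPM, which are counts scaled to a common library total, in pre-cDCs and from 10310 to 11130 in pDCs, and 8 cDC lineage markers from 379 to 472 in pre-cDCs and from 82.0 to 91.8 in pDCs, although these lists share factors with the match.

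Library totals ran from 1801463 to 5995971 counts, so that 3 counts corresponded to between 0.50 and 1.67 CPM. Transcripts of other cell types were counted as well: 6 granulocyte genes, the calprotectin gene S100a8 among them, summed to between 2041 and 12140 CPM, highest in 1 lo-hi and 1 lo-lo library (both replicate 1), while the granulocyte surface marker Ly6g was at 4.20 CPM or below in all libraries. Erythroid genes summed to between 2491 and 8987 CPM. The T cell, NK cell and macrophage lists stayed at or under 12.9 CPM in each library, B cell genes at or under 25.9 and platelet genes at or under 94.5. A plasma cell list (Xbp1, Sdc1 and Jchain) ran from 132 to 155 CPM in pre-cDCs and lo-lo and from 216 to 389 in lo-hi and pDCs. Most of that sum was Xbp1, with means of 114 CPM in pre-cDCs and 265 in pDCs. Sdc1 means were 7.67 and 22.2 CPM in the same populations. Jchain did not follow the sum, with means of 19.7 and 14.6 CPM and libraries that overlapped. Whether plasma cells contributed to the rise of the sum was not tested. The 4 replicate 3 wells had 87 to 119 counts of Xist and 203 to 388 counts summed over 4 Y-linked genes, against 601 to 1959 and 12 to 23 in the other 8 wells. In bulk samples, fewer cells of a type and less RNA per cell cannot be told apart.

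MHC class I molecules show peptides from inside the cell to CD8 T cells. The proteasome cuts proteins into peptides, the Tap1 and Tap2 transporter carries them into the endoplasmic reticulum, and tapasin holds the empty heavy chain and its B2m light chain at the transporter until a peptide fits. In the immunoproteasome the inducible subunits Psmb8, Psmb9 and Psmb10 take the places of the standard subunits Psmb5, Psmb6 and Psmb7. NLRC5 raises class I transcription through factors bound at the promoters, and interferons raise most of the pathway. pDCs are known for producing type I interferon, and cDCs, which arise from pre-cDCs, for presenting antigen to T cells.

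The genes lie at few places in the genome (GRCm38, GENCODE vM21). Psmb9, Tap1, Psmb8 and Tap2 form 1 cluster of 34335 bases at chr17:34181987-34216321. None of these 4 genes passed the test among the populations in edgeR. Tap2 alone had an unadjusted p under 0.05, as 5653 of 15293 tested genes did. Tapbp (chr17:33915899-33929292), H2-K1 (chr17:33996017-34000347) and H2-D1 (chr17:35262730-35267499) lie on the same chromosome outside the cluster, B2m is at chr2:122147686-122153083, and Psmb10 (chr8:105935735-105938444) and Nlrc5 (chr8:94434356-94527272) are on chromosome 8. Tap1 and Psmb9 run in opposite directions and overlap by 212 bases at their 5′ ends in GENCODE, whereas their RefSeq starts lie 226 bases apart without overlap, B2m lies inside the span of Patl2 on the other strand, and Tapbp shares 3422 bases with Zbtb22 on the same strand. Whether reads were counted by strand is not given in the sources used here, so reads of such neighbours may be mixed. H2-K1, H2-D1 and many non-classical class I genes are near-identical in part, and their split of reads is uncertain.

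Promoter windows are shown for the 3 genes of the class I molecule, which differed among the populations, and for Tap1, which shares its window with Psmb9 and did not pass the test. Each runs 5′ to 3′ from 250 bases before to 50 bases after the start of transcription in RefSeq (GRCm38.p6). Capitals mark matches on either strand to GAAA, any 2 bases, then GAAA, written here for the interferon-stimulated response element (ISRE), or to GGGA, any 4 bases, then CC, written for the NF-kB site, and overlapping matches are joined.

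H2-K1 (- strand, chr17:34000298-34000597): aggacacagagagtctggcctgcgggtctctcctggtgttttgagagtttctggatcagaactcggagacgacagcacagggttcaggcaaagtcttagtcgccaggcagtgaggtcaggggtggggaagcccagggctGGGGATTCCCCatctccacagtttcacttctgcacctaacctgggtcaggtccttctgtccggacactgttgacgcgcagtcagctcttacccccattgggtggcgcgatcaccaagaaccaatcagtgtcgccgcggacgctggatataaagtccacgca
H2-D1 (+ strand, chr17:35262844-35263143): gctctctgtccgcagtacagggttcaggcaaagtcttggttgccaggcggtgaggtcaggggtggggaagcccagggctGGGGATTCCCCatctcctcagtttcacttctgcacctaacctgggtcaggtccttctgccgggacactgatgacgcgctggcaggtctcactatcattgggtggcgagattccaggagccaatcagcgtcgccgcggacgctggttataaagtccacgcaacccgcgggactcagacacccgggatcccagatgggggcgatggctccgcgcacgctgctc
B2m (+ strand, chr2:122147437-122147736): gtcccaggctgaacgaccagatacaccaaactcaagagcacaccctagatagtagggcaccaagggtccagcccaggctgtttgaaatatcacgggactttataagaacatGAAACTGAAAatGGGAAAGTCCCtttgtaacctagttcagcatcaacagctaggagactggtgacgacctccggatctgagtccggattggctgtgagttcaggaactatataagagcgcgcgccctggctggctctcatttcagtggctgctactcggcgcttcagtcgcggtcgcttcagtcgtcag
Tap1 (+ strand, chr17:34187306-34187605): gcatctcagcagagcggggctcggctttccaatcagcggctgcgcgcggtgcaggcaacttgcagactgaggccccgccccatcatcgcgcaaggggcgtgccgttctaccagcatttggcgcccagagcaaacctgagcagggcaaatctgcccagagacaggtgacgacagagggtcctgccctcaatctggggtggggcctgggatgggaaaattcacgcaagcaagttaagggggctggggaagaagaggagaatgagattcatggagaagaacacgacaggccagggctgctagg

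Windows were found for 8 of the 10 genes. The H2-K1 and H2-D1 windows hold the same stretch GGGGATTCCCC, with its first base 111 and 171 bases before the start, respectively. A second H2-K1 window, from another start and not shown, held it 125 bases before that start. These distances therefore depend on which start is taken. The B2m window holds an ISRE match from 139 to 130 bases before the start and, beginning 127 bases before it, an NF-kB match. Among the 8 genes the ISRE letters were found in 1 and the NF-kB letters in 3, those shown. Of 32851 windows of this length from all genes, 3.44% and 20.7% held them. Other spellings of these sites were not searched. The H2-K1 and H2-D1 windows, like any window without the ISRE letters, may therefore still hold an ISRE. Both together were in 0.533% of all windows. CCAAT, the letters bound by the NF-Y complex, was in 6 of the 8 against 37.4%, and TGACG, part of the site for CREB and ATF factors, in 5 against 20.8%. The Tap1 and Psmb9 windows share 275 bases, so their CCAAT and TGACG matches are the same letters. A match describes letters only, and none says that a factor was bound.

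**Figure D1:**
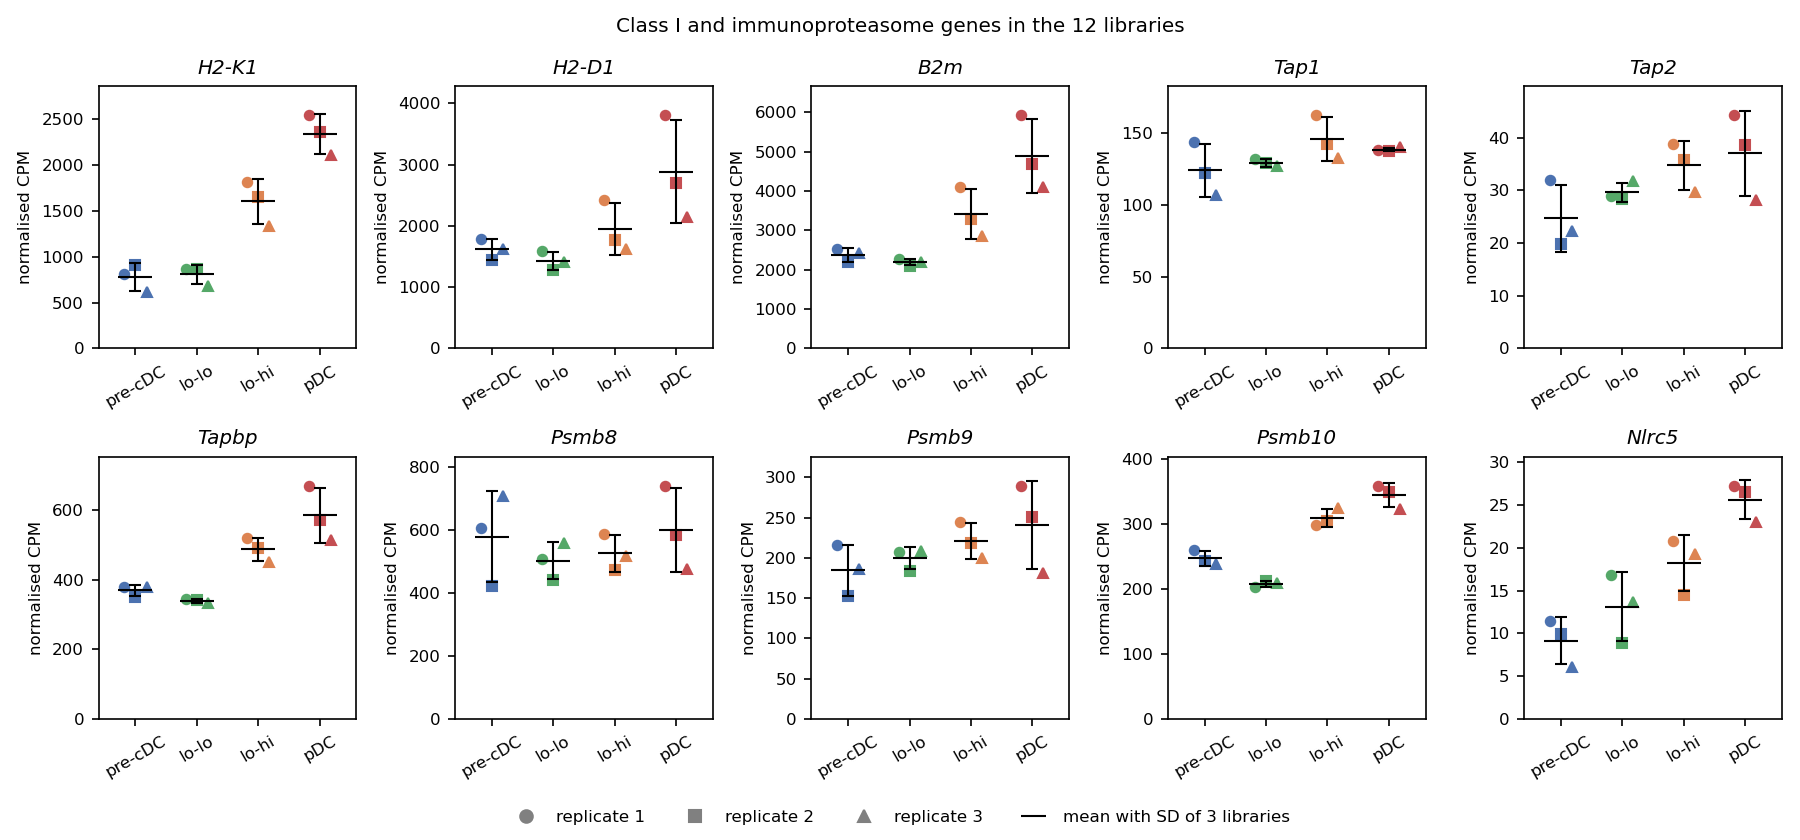
Normalised CPM of the 10 genes in each of the 12 libraries, by population, with points for single libraries, shaped by replicate number, and bars for the mean and SD of 3 libraries. H2-K1 sat between 612 and 913 in the 6 pre-cDC and lo-lo libraries and between 1339.8 and 2546 in the 6 lo-hi and pDC libraries, while Tap1 ranged from 107 to 163 across all 12.

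Among the 4 populations 6 of the 10 genes passed an adjusted p of 0.01, where 19.9% of all tested genes did (quasi-likelihood test in edgeR, p adjusted over 15293 genes after Benjamini and Hochberg). Levels below are CPM scaled by TMM factors and are compared between populations, not between genes, since tags near the 3′ end do not give a level per length. Fold changes are the fitted log2 values with their standard errors.

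H2-K1, the heavy chain of the classical K molecule, had the smallest adjusted p of the 10 (8.18e-09). It was at 808, 913 and 612 CPM in pre-cDCs, 869, 869.9 and 684 in lo-lo, 1819.9, 1656 and 1339.8 in lo-hi, and 2546, 2358 and 2116 in pDCs. Pre-cDCs and lo-lo overlapped, every lo-hi library lay above both, and every pDC library lay above every lo-hi library. From pre-cDCs to pDCs H2-K1 rose by 1.59 ± 0.16 on the log2 scale (3.01-fold, adjusted p = 2.03e-08), and from lo-lo to lo-hi by 0.99 ± 0.16 (1.99-fold, adjusted p = 0.000131). With the 2 libraries highest in granulocyte genes left out together, the second value was 0.93 and no longer passed. The last step, pDC over lo-hi, was 0.54 ± 0.16 and did not pass (adjusted p = 0.0777), so the order of these neighbours is given by non-overlapping libraries and not by that test. With the replicate number as a block it was 0.55 ± 0.13 and passed (adjusted p = 0.00678).

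H2-D1, the heavy chain of the D molecule, was at 1782, 1448 and 1616 CPM in pre-cDCs, 1586, 1286 and 1406 in lo-lo, 2425, 1776 and 1628 in lo-hi, and 3807, 2702 and 2147 in pDCs (adjusted p among populations 0.000376). The lo-hi libraries reached down into the pre-cDC range, and the lowest pDC library lay below the highest lo-hi library. H2-D1 rose by 0.84 ± 0.18 from pre-cDCs to pDCs (1.79-fold, adjusted p = 0.000873). That value was 0.54 (adjusted p = 0.0152) without pDC replicate 1, 0.74 (adjusted p = 0.0111) without pre-cDC replicate 2 and 0.79 (adjusted p = 0.0155) without pre-cDC replicate 3. When the counts of H2-K1 and H2-D1 were summed, since reads of the pair may be exchanged, pDCs exceeded pre-cDCs by 1.13 (adjusted p = 2.34e-06) and lo-hi exceeded lo-lo by 0.67 (adjusted p = 0.00482).

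B2m, the light chain shared by class I molecules, had its highest levels in pDCs (adjusted p among populations 1.53e-06). It was at 2527, 2192 and 2426 CPM in pre-cDCs, 2279.8, 2109 and 2196 in lo-lo, 4108, 3299 and 2862 in lo-hi, and 5932, 4683 and 4094 in pDCs. The 6 libraries of lo-hi and pDCs lay above the other 6, and the lowest pDC library was just below the highest lo-hi library. B2m rose by 1.04 ± 0.15 from pre-cDCs to pDCs (2.06-fold, adjusted p = 5.16e-06) and by 0.64 ± 0.15 from lo-lo to lo-hi (1.56-fold, adjusted p = 0.00559). The second call was lost when pre-cDC replicate 1, pDC replicate 2, lo-hi replicate 1 or 2, or any 1 of the lo-lo libraries was left out, with values from 0.47 to 0.66. B2m and Tapbp are among the genes the study picked from these same libraries, so their direction here is not independent of that choice.

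**Figure D2:**
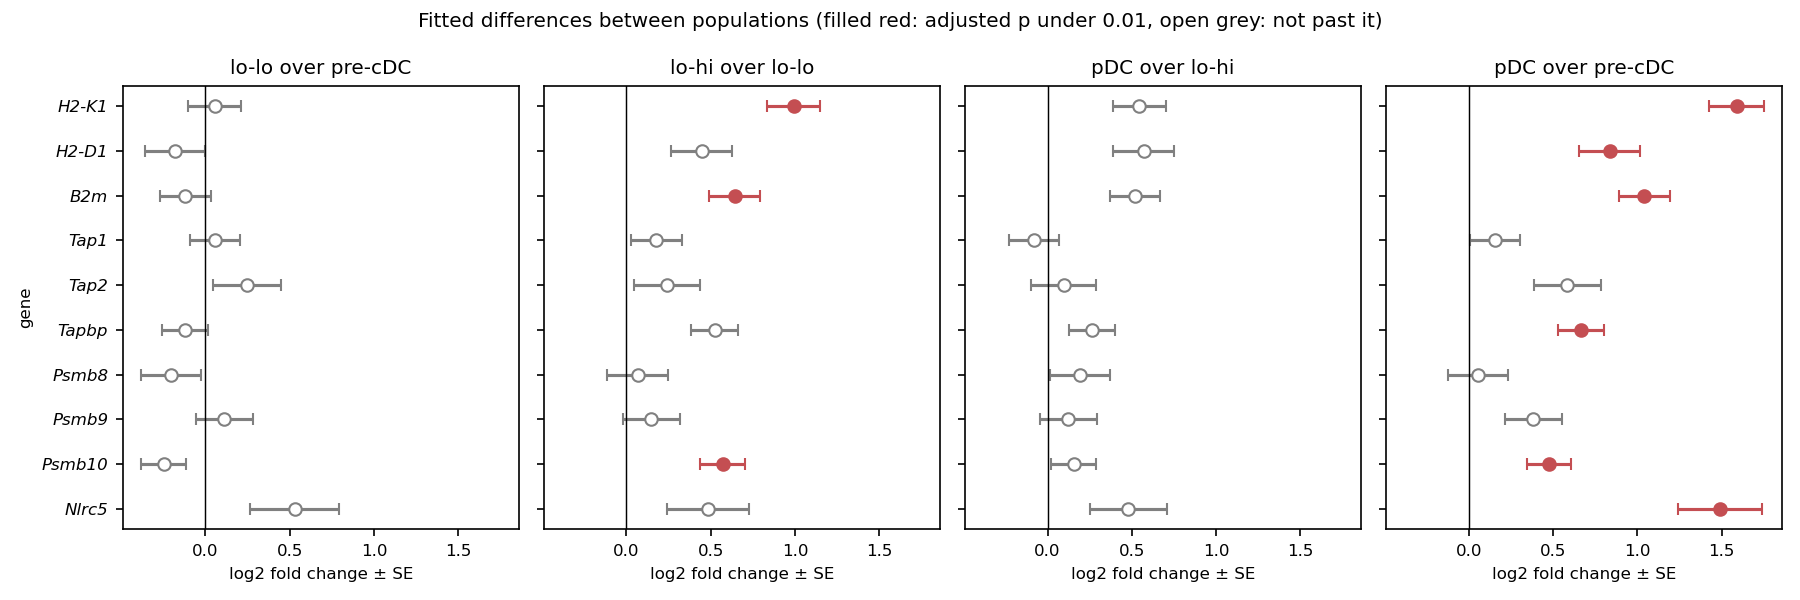
Fitted log2 fold changes with standard errors for the 10 genes in 4 comparisons of populations, with filled red points for an adjusted p under 0.01 and open grey points for values that did not pass. No gene is filled for lo-lo over pre-cDC or pDC over lo-hi, 3 are for lo-hi over lo-lo and 6 for pDC over pre-cDC.

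Neither transporter gene passed the test among populations (adjusted p 0.584 for Tap1 and 0.0980 for Tap2). Tap1, which forms the transporter with Tap2, was at 144, 122 and 107 CPM in pre-cDCs, 132, 129 and 127 in lo-lo, 163, 143 and 133 in lo-hi, and 138, 138 and 140.1 in pDCs. All populations overlapped apart from lo-lo, which lay below lo-hi and pDCs, and pDC over pre-cDC was 0.16 ± 0.15 (adjusted p = 0.461). Tap2 was at 31.9, 19.8 and 22.3 CPM in pre-cDCs, 28.9, 28.3 and 31.7 in lo-lo, 38.9, 35.7 and 29.8 in lo-hi, and 44.3, 38.5 and 28.2 in pDCs. The Tap2 mean was 24.7 CPM in pre-cDCs and 37.0 in pDCs, with groups that overlapped, and pDC over pre-cDC was 0.58 ± 0.20 (adjusted p = 0.0257), which did not pass.

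Tapbp encodes tapasin, which bridges the transporter and the heavy chain. It was at 378, 351 and 378 CPM in pre-cDCs, 343, 342 and 333 in lo-lo, 519, 491 and 451 in lo-hi, and 669.6, 572 and 513 in pDCs (adjusted p among populations 0.000145). All lo-hi and pDC libraries lay above all others, and lo-hi and pDCs overlapped. Tapbp rose by 0.66 ± 0.14 from pre-cDCs to pDCs (1.58-fold, adjusted p = 0.000475), although in a fit of these 6 libraries alone the adjusted p was 0.0134. From lo-lo to lo-hi the value was 0.52 ± 0.14 (adjusted p = 0.0146) and did not pass.

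Of the inducible proteasome subunits, Psmb10 passed the test among populations (adjusted p = 0.000466). Psmb10, the inducible trypsin-like subunit, was at 260.3, 243 and 238 CPM in pre-cDCs, 203, 212 and 209 in lo-lo, 298, 305 and 325 in lo-hi, and 359, 349 and 323 in pDCs. The lo-lo libraries were the lowest, pre-cDCs came next without overlap, and lo-hi and pDCs lay above both and overlapped each other. Psmb10 rose by 0.72 ± 0.13 from lo-lo to pDCs (1.65-fold, adjusted p = 0.000197) and by 0.57 ± 0.13 from lo-lo to lo-hi (adjusted p = 0.00564). The pDC over pre-cDC value of 0.48 ± 0.13 (adjusted p = 0.00720) stood close to the threshold and was lost when any 1 of the 11 libraries other than pDC replicate 3 was left out, with values from 0.40 to 0.51. The lo-lo to lo-hi call was lost in the same way without pre-cDC replicate 1, pDC replicate 2, or any 1 library of lo-lo or lo-hi, with values from 0.52 to 0.58.

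Psmb8, the inducible chymotrypsin-like subunit, was at 606, 423 and 709 CPM in pre-cDCs, 507, 442 and 560.1 in lo-lo, 589, 473 and 516 in lo-hi, and 741, 585 and 477 in pDCs. The libraries of all populations overlapped, and pDC over pre-cDC was 0.05 ± 0.18 (adjusted p = 0.853). Psmb9, the inducible subunit that replaces Psmb6, was at 216, 152 and 186 CPM in pre-cDCs, 207, 184 and 208 in lo-lo, 245, 218 and 200.1 in lo-hi, and 289.7, 251 and 181 in pDCs. Its groups also overlapped throughout, with 0.38 ± 0.17 for pDC over pre-cDC (adjusted p = 0.0893).

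Because each inducible subunit replaces a standard one, the log2 ratio of the pair was computed in each library. Psmb10 to Psmb7 was 2.29, 2.50 and 2.12 in pre-cDCs, 1.96, 2.09 and 2.001 in lo-lo, 3.11, 3.44 and 3.17 in lo-hi, and 3.17, 3.48 and 3.55 in pDCs. The 6 lo-hi and pDC values lay above the other 6 with a gap between 2.50 and 3.11, and the pDC mean exceeded the pre-cDC mean by 1.10 (2.14-fold). An exact permutation test of the spread among all 4 populations gave p = 0.000714, and 0.00136 after adjustment over 3 ratios. It does not test pDCs against pre-cDCs alone. The standard subunit Psmb7 itself fell by 0.60 ± 0.17 from pre-cDCs to pDCs (adjusted p = 0.00930), from 53.0, 42.6 and 54.7 CPM to 39.7, 31.3 and 27.3.

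Psmb9 to Psmb6 was -0.42, -0.47 and -0.85 in pre-cDCs, -0.20, -0.20 and -0.34 in lo-lo, 0.01, 0.23 and 0.00 in lo-hi, and 0.17, 0.31 and -0.02 in pDCs. Pre-cDC, lo-lo and the joined lo-hi and pDC libraries formed a rising order without overlap, and pDCs exceeded pre-cDCs by 0.73 (1.66-fold). The exact permutation test of all 4 populations gave p = 0.000909 (adjusted 0.00136), which is not a test of that pair. Neither gene of this pair passed the test among populations alone, with Psmb6 at -0.38 ± 0.17 for pDC over pre-cDC (adjusted p = 0.105). Psmb8 to Psmb5 was 3.55, 3.07 and 3.81 in pre-cDCs, 3.23, 3.34 and 3.50 in lo-lo, 3.90, 3.45 and 3.45 in lo-hi, and 4.06, 4.23 and 3.87 in pDCs. Every pDC library lay above every pre-cDC and lo-lo library, and the highest lo-hi library lay above the lowest pDC library. The pDC mean exceeded the pre-cDC mean by 0.57. In the permutation test of all 4 populations the ratio missed the threshold of 0.05 (p = 0.0543). Without lo-hi replicate 1, pre-cDC replicate 2 or pre-cDC replicate 3 the ratio passed, with pDC minus pre-cDC values of 0.57, 0.37 and 0.74. The smallest p these 369600 assignments can give is 6.49e-05. A ratio shows unequal change within a library and not the make-up of proteasomes.

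**Figure D3:**
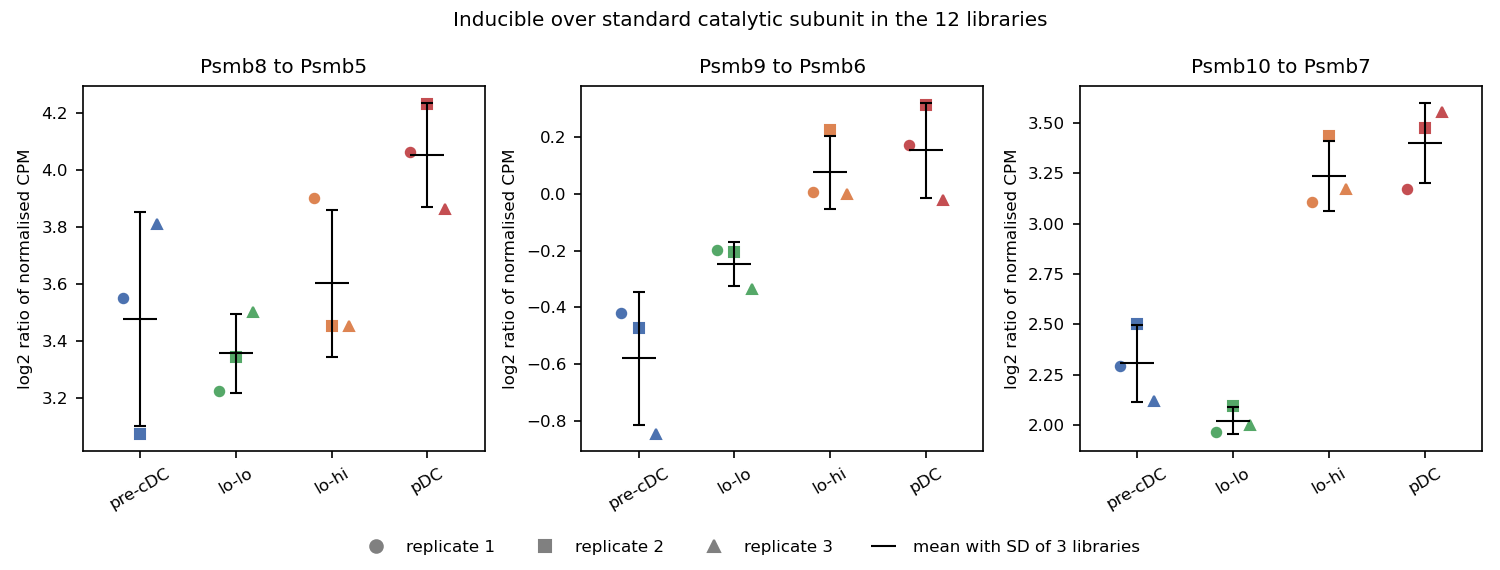
Log2 ratio of each inducible catalytic subunit to the standard subunit it replaces, in each library by population, with bars for the mean and SD of 3 libraries. Psmb10 to Psmb7 separated the lo-hi and pDC libraries (3.11 to 3.55) from the pre-cDC and lo-lo libraries (1.96 to 2.50), and in Psmb8 to Psmb5 the pDC libraries (3.87 to 4.23) lay above all pre-cDC and lo-lo libraries and overlapped 1 lo-hi library (3.90).

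Nlrc5, the transactivator, had low counts but passed the test among populations (adjusted p = 0.000181). It was at 11.4, 9.92 and 6.08 CPM in pre-cDCs, 16.8, 8.87 and 13.6 in lo-lo, 20.8, 14.5 and 19.3 in lo-hi, and 27.2, 26.5 and 22.99 in pDCs. The pDC libraries lay above all others, the lo-hi libraries above all pre-cDC libraries, and lo-lo overlapped its neighbours on both sides. Nlrc5 rose by 1.49 ± 0.25 from pre-cDCs to pDCs (2.81-fold, adjusted p = 3.63e-05), by 1.01 ± 0.26 from pre-cDCs to lo-hi (adjusted p = 0.00625) and by 0.96 ± 0.23 from lo-lo to pDCs (adjusted p = 0.00294). The lo-hi call was lost without pre-cDC replicate 3 (0.74), lo-hi replicate 1 (0.86) or 3 (0.99), or pDC replicate 2 (0.98), and in DESeq2 (0.98, adjusted p = 0.0122). The pDC over lo-lo call was lost without pDC replicate 1 (0.86) or 2 (0.90) or lo-lo replicate 2 (0.76) or 3 (0.95).

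Read by step, the calls among the 10 genes fell as follows. From pre-cDC to lo-lo none passed, where 3.16% of all tested genes did in either direction, and none had an unadjusted p under 0.05 (in DESeq2 none passed and 1 had such a p). Among all 15293 tested genes 2694 had such a p in edgeR and 2064 in DESeq2. The median log2 change of the 10 genes there was -0.03 against 0.04 over all tested genes. From lo-lo to lo-hi, H2-K1, B2m and Psmb10 were higher and none was lower, where 2.33% of all tested genes were higher. All 10 fitted values were above 0, as were 7767 of 15293 over all tested genes, with a median of 0.46 against 0.01. The count of called genes fell to 0 without the 2 granulocyte-high libraries. It fell to 1 when pre-cDC replicate 1, pDC replicate 2, lo-hi replicate 1 or 2, or any 1 lo-lo library was left out. Calls over all tested genes fell as well, from 790 of 15293 in either direction. They were 220 of 15217 without the 2 granulocyte-high libraries and between 381 and 746 in the fits with 1 of those libraries left out. In granulocyte genes lo-hi ran from 6078 to 12140 CPM and lo-lo from 3182 to 10480, and the part of these cells in the result was not tested. With the replicate number as a block, Tapbp passed as well (0.52 ± 0.13, adjusted p = 0.00631), where 3.15% of all tested genes were higher.

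From lo-hi to pDC none passed, where 0.961% of all tested genes did in either direction and 0.118% were higher. With the replicate number as a block, H2-K1 and H2-D1 (0.56 ± 0.14, adjusted p = 0.00994) were higher in pDCs than in lo-hi, where 0.556% of all tested genes were. The study describes 3 individual mice, and the replicate 3 wells of all 4 populations had the higher Y-linked counts, but no source used here says that a number marks a mouse. Of the 10 genes, 4 had an unadjusted p under 0.05 (H2-K1, H2-D1, B2m and Nlrc5), and in DESeq2 none passed and 3 had such a p. Among all 15293 tested genes 1735 had such a p in edgeR and 1249 in DESeq2. Over the whole span from pre-cDC to pDC 6 were higher and none lower, where 11.4% of all tested genes were higher, with a median of 0.62 against 0.05. The same 6 genes were higher in pDCs than in lo-lo, where 6.71% were, with a median of 0.76 against 0.02. For lo-hi over pre-cDC, H2-K1 (1.05 ± 0.16, adjusted p = 2.21e-05) and Nlrc5 were higher, where 6.76% were, and B2m was at 0.52 ± 0.15 (adjusted p = 0.0131). With the block B2m passed too (0.51 ± 0.13, adjusted p = 0.00353), where 8.41% were higher. The count of 2 fell to 1 without pre-cDC replicate 3, lo-hi replicate 1 or pDC replicate 2. Calls over all tested genes, in either direction, fell there from 2001 of 15293 to 1525 of 15351, 1380 of 15227 and 1864 of 15289. These comparisons share libraries, so their counts are not separate evidence.

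In the 4 wells whose deposited label names the same population as the match, 1 for each population, H2-K1 was at 808 CPM in pre-cDC, 869.9 in lo-lo, 1656 in lo-hi and 2116 in pDC. B2m there was at 2527, 2109, 3299 and 4094 CPM and Nlrc5 at 11.4, 8.87, 14.5 and 22.99 in the same order. Tap1, Tap2, Psmb8 and Psmb9 were lower in the pDC well (140.1, 28.2, 477 and 181) than in the pre-cDC well (144, 31.9, 606 and 216). With 1 library for each population these values carry no test.

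The libraries of 1 population were not alike in these genes. In pDCs the replicate 1 library was the highest for 9 of the 10 genes and the replicate 3 library, the one with the higher Y-linked counts, the lowest for 9, with Tap1 the exception to both. In lo-hi replicate 1 was highest for 9 and replicate 3 lowest for 7. How many of all tested genes share these orders was not computed, so they cannot be called particular to the 10 genes. The pDC replicate 1 library was also the deepest (5995971 counts), against 2319600 for replicate 3. The coefficient of variation over the 3 pDC libraries ran from 0.964% for Tap1 to 29.3% for H2-D1, with a median of 16.3%. Between libraries of the same replicate number the pDC to pre-cDC ratio of H2-K1 was 3.15, 2.58 and 3.46 and that of Nlrc5 2.39, 2.68 and 3.78. For Psmb8 it was 1.22, 1.38 and 0.673, so its direction was not shared. The Pearson correlation of Psmb8 with the other 9 genes over the 12 libraries (log2 CPM, a description of libraries that share populations) ran from -0.05 with Tap1 to 0.67 with Psmb9 and was 0.11 with H2-K1, while B2m and Tapbp reached 0.99 with each other.

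The rest of the pathway was read from 7 further lists with 59 genes, 58 of them in the table, of which 22 passed the test among the 4 populations that 19.9% of all tested genes passed. The 58 include Irf1, Irf2, Irf3, Irf7, Nfkb1 and Relb, which were used to place the wells. Irf1, Irf7, Nfkb1 and Relb are among the 22, so that count is not independent of the match. The non-classical class I genes, whose products resemble the classical heavy chains, had the highest list median for pDC over pre-cDC. Of these 9 genes 7 passed, and all 7 were higher in pDCs than in pre-cDCs (background 11.4%), with a list median of 1.41. H2-Q6 was at 10.8, 19.3 and 7.77 CPM in pre-cDCs, 15.1, 14.7 and 12.1 in lo-lo, 51.0, 44.0 and 29.8 in lo-hi, and 146, 122 and 104 in pDCs. Every lo-hi library exceeded every pre-cDC and lo-lo library, and every pDC library exceeded them all. H2-Q6 rose by 3.35 ± 0.25 from pre-cDCs to pDCs (adjusted p = 2.96e-10) and by 1.55 ± 0.22 from lo-hi to pDCs (adjusted p = 0.000181).

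H2-Q7, which encodes a Qa-2 molecule, rose by 3.15 ± 0.24 and H2-Q4 by 2.30 ± 0.20 from pre-cDCs to pDCs. From lo-hi to pDCs H2-Q4 rose too, by 1.11 ± 0.19 (adjusted p = 0.000915), while H2-Q7 at 1.04 ± 0.22 did not pass (adjusted p = 0.0113). H2-T22, a ligand of some gamma delta T cells, rose by 1.65 ± 0.22 from pre-cDCs to pDCs. Cd1d1, which presents lipids, was at 0.80 ± 0.28 (adjusted p = 0.0319) and did not pass. Reads of H2-Q, H2-T, H2-K1 and H2-D1 genes may be exchanged, so the size of each single change is uncertain.

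Of 14 genes of the standard 20S core, 2 passed among populations (background 19.9%). None had a pDC over pre-cDC value above 0, where 8034 of 15293 tested genes did. For this comparison 3 were lower in pDCs (10.4% of all tested genes were), with a list median of -0.43. Psma7, an outer ring subunit, was at 801, 688 and 930.0 CPM in pre-cDCs, 561, 554 and 604 in lo-lo, 446, 446 and 444 in lo-hi, and 423, 399 and 367 in pDCs. The populations did not overlap, and Psma7 fell by 1.02 ± 0.14 from pre-cDCs to pDCs (adjusted p = 1.96e-06). Psma1 fell by 0.75 ± 0.21 (adjusted p = 0.00683) and Psmb7 as given above. Among 5 genes for the proteasome activators and for assembly the smallest adjusted p among populations was 0.128 (Psme1). Psme1 and Psme2, subunits of the interferon-inducible activator, were at 0.29 ± 0.14 and -0.15 ± 0.16 for pDC over pre-cDC, the assembly factor Pomp at -0.35 ± 0.15, and the other activators Psme3 and Psme4 at -0.24 ± 0.19 and 0.23 ± 0.28.

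Of 5 peptide loading and trimming genes 1, Tapbpl, passed, a share near the background of 19.9%. Tapbpl, a relative of tapasin that edits peptides away from the transporter, was at 13.8, 12.9 and 12.5 CPM in pre-cDCs, 16.8, 18.8 and 15.0 in lo-lo, 23.4, 21.2 and 23.1 in lo-hi, and 29.8, 28.1 and 25.2 in pDCs, with no overlap between any 2 populations. It rose by 1.09 ± 0.19 from pre-cDCs to pDCs (adjusted p = 4.72e-05). The chaperones Canx, Calr and Pdia3 and the peptide trimmer Erap1 had values between -0.02 and 0.27 for the same comparison and did not pass. Of 8 genes used in cross-presentation, which brings outside proteins onto class I, 3 passed (background 19.9%). Cybb, the catalytic subunit of the phagosomal oxidase, rose by 1.80 ± 0.20 from pre-cDCs to pDCs and Sec61a1, a channel subunit of the endoplasmic reticulum, by 0.80 ± 0.15, whereas Rab43 fell by 0.92 ± 0.17. Clec9a and Wdfy4, known from cDC1, were at 0.52 ± 0.17 (adjusted p = 0.0193) and -0.10 ± 0.17 (adjusted p = 0.704).

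**Figure D4:**
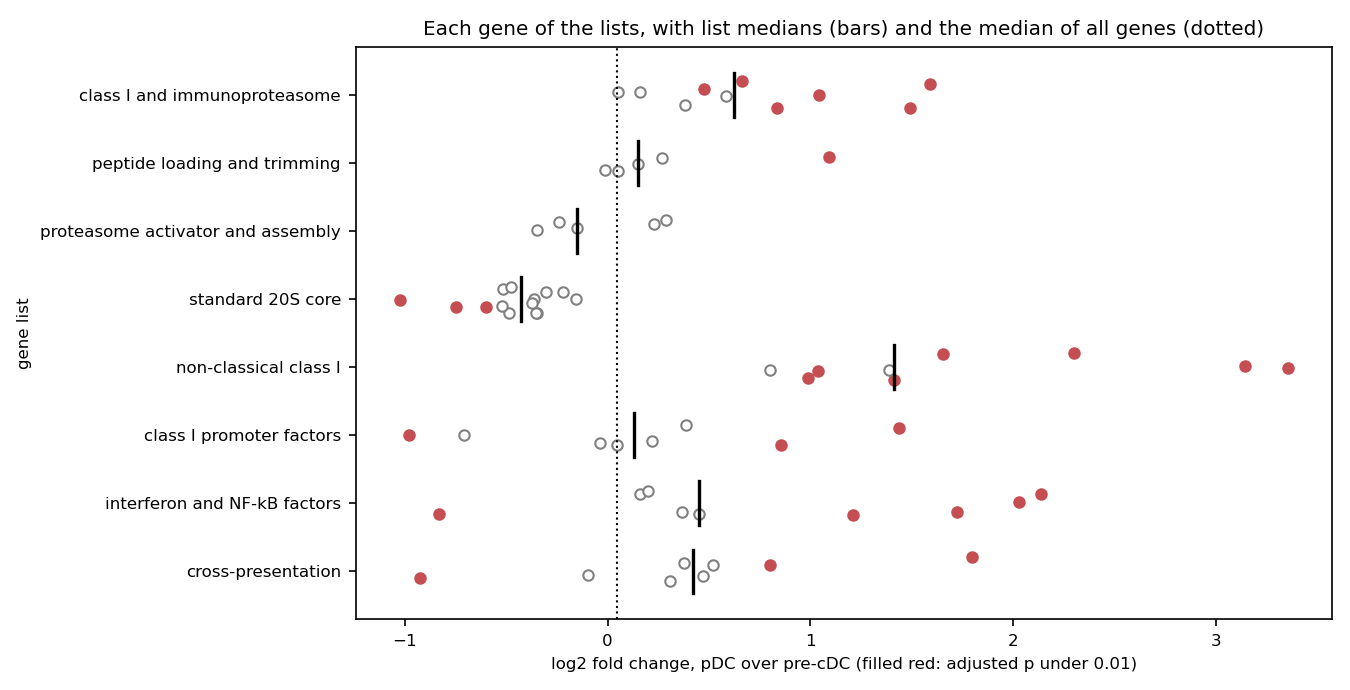
Log2 fold change of pDC over pre-cDC for every tested gene of the class I and immunoproteasome genes and of 7 further lists, filled red at an adjusted p under 0.01, with list medians as bars and the median of all tested genes (0.05) as a dotted line. All 9 non-classical class I genes lie to the right of 0 with a median of 1.41, and all 14 standard 20S core genes lie to the left with a median of -0.43. Over all 15293 tested genes 8034 values were above 0.

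Among 8 factors that bind or act at class I and class II promoters, 4 passed (background 19.9%). Ciita, the class II relative of Nlrc5, was at 3.22, 5.95 and 4.39 CPM in pre-cDCs, 0.886, 1.36 and 1.12 in lo-lo, 7.95, 4.14 and 4.41 in lo-hi, and 12.8, 10.1 and 12.6 in pDCs. At the step at which none of the 10 genes passed, Ciita fell by 1.93 ± 0.44 from pre-cDCs to lo-lo (adjusted p = 0.00624). The lo-lo libraries held 3, 4 and 5 counts of Ciita. It rose by 1.44 ± 0.30 from pre-cDCs to pDCs (adjusted p = 0.000525). Rfxank, a subunit of the RFX complex, rose by 0.85 ± 0.23 from pre-cDCs to pDCs. Nfyb, an NF-Y subunit that binds CCAAT, fell by 0.98 ± 0.17, and Nfya was at -0.71 ± 0.24 (adjusted p = 0.0249).

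Of the interferon and NF-kB factors, 5 of the 9 tested passed (Irf1, Irf7, Nfkb1, Relb and Stat2). Irf1, Irf2, Irf3, Irf7, Nfkb1 and Relb were among the 28 factors used to place the wells. Their levels and the count of 5 are therefore a description, and the count cannot be set against the background of 19.9%. Irf1, an activator of class I and immunoproteasome genes, was at 33.7, 46.6 and 35.5 CPM in pre-cDCs, 60.8, 61.8 and 47.3 in lo-lo, 98.3, 99.3 and 100.3 in lo-hi, and 129, 134 and 116 in pDCs. Means of Relb, an NF-kB subunit, were 12.1 CPM in pre-cDCs and 27.8 in pDCs, and those of Nfkb1 149 and 83.3. Of the 3 that were not used, only Stat2, which carries interferon signals to the nucleus, passed. It was at 41.9, 49.1 and 25.0 CPM in pre-cDCs, 70.0, 77.1 and 58.1 in lo-lo, 144, 153 and 127 in lo-hi, and 144, 163 and 163 in pDCs. It rose by 0.83 ± 0.20 from pre-cDCs to lo-lo (adjusted p = 0.00884), by 1.05 ± 0.19 from lo-lo to lo-hi (adjusted p = 0.000366) and was at 0.15 ± 0.18 from lo-hi to pDCs.

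The genes most like the mean standardised level of the 10 over the 12 libraries were Dcaf11 (Pearson's r = 0.97), Hint2 (0.97), Pon3 (0.97), Ppp1r11 (0.97), Mcfd2 (0.96), Ppfia4 (0.96), Hint3 (0.95), Ctsh (0.95), H2-M3 (0.95) and Crot (0.95). H2-M3, which presents formylated peptides, was the 1 class I gene among them, and Ctsh encodes the lysosomal protease cathepsin H. Most like Nlrc5 were Pam16 (0.97), 2 genes without a symbol in the table, Sema4d (0.95) and Osbpl2 (0.95). These correlations share populations and depth and describe likeness only.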

How the data were processed

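Bulk SCRB-seq, which tags RNA near its 3′ end, was run on 12 sorted bone marrow libraries. The authors made the deposited count table with zUMIs and STAR on mm10 with Ensembl genes (GRCm38). Whether a count is a read or a molecular identifier, and whether strand was used, is not given in the sources used here. Of 21754 genes 21410 matched a symbol, and 15293 with a mean of at least 1 count were tested, leaving out 6461.

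All 12 libraries entered 1 fit in edgeR 4.0.16 (R 4.3.3) with TMM scaling and a robust quasi-likelihood test of the 4 populations and of 6 pairs, after the study's own count filter and adjusted p cutoff of 0.01. The standard error is the log2 fold change over the square root of F. Subunit ratios were log2 ratios of counts, compared with an exact permutation test (Python 3.11.15). The fits were tested on simulated data. DESeq2 1.42.0, other scaling, filters and cutoffs, thinned counts, a replicate block, each library left out and the deposited labels were alternatives.

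Wells follow the rank match described in the report, made with the order of 28 factors only. The members and lists were chosen with earlier results of these data known. Named beyond the 10 members were the standard partners of the inducible subunits, up to 4 genes with the smallest p in each list, all genes of lists of at most 6, and the genes most like the members. Cd1d1 and Wdfy4, which fall outside that rule, and the motif letters were chosen after values were seen. Promoter windows came from RefSeq (GRCm38.p6) and positions from GENCODE vM21. Some genes of these lists are not reported here. Totals of 1801463 to 5995971 counts make 3 counts worth 0.50 to 1.67 CPM, which covers counting error only.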

Additional observations from a re-analysis of the deposited data

How the results depend on the processing

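The 17 called changes of the 10 genes had 368 values under the alternative settings other than the deposited labels. All 368 kept their direction, and 317 also kept the call. The 317 include 17 from the cutoff of 0.05, which loosened the threshold on the same fit and so could not lose a call. The 17 changes were picked because they passed, and each setting refits the same libraries or a part of them. A kept direction is therefore not separate evidence. The 51 values that lost the call concern 8 changes. Among these, Psmb10 for pDC over pre-cDC was lost in 15 settings and for lo-hi over lo-lo in 11. The count of 6 genes among the 4 populations was 6 under each library left out, where 2411 to 3335 of all tested genes passed.

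Under the deposited labels the counts of called genes were 0 among the 4 populations, 0 for lo-hi over lo-lo, 0 for pDC over pre-cDC, 0 for pDC over lo-lo, 0 for lo-hi over pre-cDC and 0 for the other pathway genes. The pDC minus pre-cDC differences in log2 ratio fell to 0.086 for Psmb9 to Psmb6 and 0.45 for Psmb10 to Psmb7. Neither ratio passed the permutation test of the 4 populations there. The values that turned direction there were H2-D1 for pDC over pre-cDC (-0.16), H2-K1 (-0.066), H2-D1 (-0.34), B2m (-0.16) and Tapbp (-0.073) for pDC over lo-lo, and Nlrc5 for lo-hi over pre-cDC (-0.055).

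For lo-hi over pre-cDC, 2 genes were called, against 4 at an adjusted p of 0.05 and 1 with counts thinned to the smallest total. The count was 1 in DESeq2, 1 without the granulocyte-high libraries and 1 to 3 with 1 library left out. Over all tested genes 2001 of 15293 were called, against 3063 at 0.05, 1710 of 14187 in thinned counts and 1859 in DESeq2. Such calls were 1240 of 15217 without the granulocyte-high libraries and 1380 to 2339 with 1 library left out. For lo-hi over lo-lo the count of 3 became 0 without the granulocyte-high libraries, an alternative chosen after seeing the data. With 1 library left out it was 1 to 4. Calls over all tested genes for this pair went from 790 of 15293 to 220 of 15217 without the granulocyte-high libraries. With 1 library left out they were 381 to 945. For Psmb8 to Psmb5 the pDC minus pre-cDC difference was 0.74 in thinned counts, where the ratio passed the test of the 4 populations. The difference ran from 0.37 to 0.74 with 1 library left out. Where fewer samples entered a fit the cause lies in that construction in part, and the cause was otherwise not tested. Counts of 3 to 5 per library, as for Ciita in lo-lo, limit what can be seen.

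With the replicate block, 2 genes were called for pDC over lo-hi, H2-K1 (0.55, adjusted p = 0.00678) and H2-D1 (0.56, adjusted p = 0.00994), where 0 were called without it. Deviations of same-numbered libraries had a mean correlation of 0.11 over 18 pairs (-0.165 to 0.3), and 11 exceeded 0.1. For libraries of different numbers the mean was -0.0548, and 4 of 36 pairs exceeded 0.1. Each gene was centred within its population first, so the mean for different numbers nearly follows from that for same numbers. It is therefore not a separate comparison. Since not every same-numbered pair exceeded 0.1 and no source ties a number to a mouse, the fit without the block was kept, and whether the numbers mark animals is not settled. Other counts under the block were 6 among populations, 4 for lo-hi over lo-lo, 6 for pDC over pre-cDC, 6 for pDC over lo-lo and 3 for lo-hi over pre-cDC. Of all 15293 tested genes the block called 3730, 1063, 3882, 2594 and 2482 in that order, in either direction. For pDC over lo-hi it called 346, against 147 without the block.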
